A study of Mus musculus with 6 samples.

Results

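Neutral amino acid transporters are described here as 9 genes, namely Slc3a2, Slc7a5, Slc7a6, Slc7a7, Slc7a8, Slc38a1, Slc38a2, Slc1a4 and Slc1a5. They were picked by symbol from the 41549 genes of a count table of mouse M2 macrophages, and all 9 were found in it. Membership rests on the symbol and not on a threshold of measured values, although earlier results of these data were known when the set was drawn up. The cells were bone marrow-derived macrophages (BMDMs), grown from marrow of wild-type C57BL/6N mice for 7 days in M-CSF at 10 ng/ml. The methods give the mice as 10 to 12 weeks old, whereas the reporting form of the study gives 12 to 14 weeks. While still unpolarized, the cells were transfected with 50 pmol of an LNA antisense oligonucleotide, which was a control in the Ctr group and directed against a tRNA fragment, 5'tRF-Glu(CTC), in the αGlu group. Both groups then received IL-4 and IL-13 at 10 ng/ml for 48 h, which drives macrophages toward the anti-inflammatory M2 state. Each group had 3 libraries of bulk mRNA, so fewer cells of a type and less RNA per cell cannot be told apart. The study describes replicates as independent experiments on cells of different animals. The comparison asks how blocking the fragment changed the mRNA of M2 macrophages. The fragment itself was not measured in these libraries.

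The antisense is shown with its target because their pairing is what separates the groups. Capitals mark the bases that pair, both sequences run 5' to 3', and pairing starts at base 2 of the 21-base target. The line named 5'tRF-Glu(CTC) gives only this target and not the whole fragment. The paper reports longer fragments in mouse and human islet cells.
antisense: TAACCACTAGACCACCAGGG
5'tRF-Glu(CTC): tCCCTGGTGGTCTAGTGGTTA

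Neutral amino acids such as leucine, alanine and glutamine cross the plasma membrane on carriers of several families. Slc3a2 encodes the CD98 heavy chain (4F2hc), a glycoprotein that carries light chains of the Slc7 family to the cell surface, where the light chain does the exchange. Slc1a4 (ASCT1), Slc1a5 (ASCT2), Slc38a1 (SNAT1) and Slc38a2 (SNAT2) need no heavy chain and depend on sodium. In macrophages, amino acids that enter by these routes feed protein synthesis, arginine and glutamine metabolism and the activation of mTORC1, and several of the genes are known targets of the amino acid response factor ATF4.

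The largest differences among the 9 genes were a lower Slc1a5 in αGlu and a higher Slc7a6, Slc7a8 and Slc1a4, whereas Slc3a2, Slc7a5, Slc38a1 and Slc38a2 lay close to the Ctr level. In edgeR's quasi-likelihood test over all 6 libraries, none of the 9 genes was called at an adjusted p under 0.1 with more than a 2-fold difference, and 0% of the 11933 genes tested were. All 9 genes passed the filter on low counts. At an unadjusted p under 0.05, 3 of the 9 were higher in αGlu, against 12.7% of all genes, and 1 was lower, against 11.9%. The 3 αGlu libraries lay wholly above the Ctr libraries for 1 of the 9 (14.2% of all genes) and wholly below them for 1 (15.9% of all genes). The shares without overlap, 11.1% in each direction, were near those of all genes. The gene wholly above was Slc1a4, a scarce mRNA that passed the filter through the αGlu group, and among the other 8 members 0 lay wholly above and 2 were higher at an unadjusted p under 0.05. The median log2 fold change of the 9 was 0.07, and that of all genes tested was 0.02.

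Total counts ranged from 17912831 to 30386653, and from 14539 to 15295 genes had reads. αGlu 1 stood apart from its group. On the leading principal component, which held 76.7% of the variance, the Ctr libraries lay between -50.5 and -35.8, αGlu 1 at -22.2, and αGlu 2 and αGlu 3 at 74.4 and 74.7. Fold changes are therefore also given without αGlu 1, an omission planned for every library but read here with its position known. In that fit edgeR called 8.05% of 12340 genes higher and 10.5% lower. DESeq2 on all 6 libraries called 4.21% of 13742 genes higher and 3.92% lower. Levels are given in CPM, the reads of a gene per 1000000 reads of a library after scaling by TMM factors. The 7 macrophage markers were all above 1 CPM, with a summed level of 11820 to 13380 CPM in Ctr and 12580 to 18540 CPM in αGlu. The sum of 7 genes of the IL-4 response was 2719 to 4422 CPM in Ctr and 3993 to 6939 CPM in αGlu. The highest macrophage marker, Lyz2, averaged 6601 CPM in Ctr and 8922 CPM in αGlu. The highest IL-4 response gene, Chil3, averaged 2054 and 2905 CPM. The sums do not give the direction of the other genes. The 7 neutrophil markers summed to 105.5 to 159.3 CPM in Ctr and 184.7 to 611.6 CPM in αGlu, of which Csf3r made up most, while Ly6g and Retnlg were at 0 in all libraries. Each of the other marker sums stayed under 8 CPM in every library, with ranges of 1.82 to 2.30 CPM in Ctr and 1.03 to 1.61 CPM in αGlu for dendritic cells, 1.63 to 7.18 CPM and 0.913 to 2.87 CPM for fibroblasts, and 0.0418 to 0.0928 CPM and 0.11 to 0.22 CPM for lymphocytes. Their dendritic and lymphocyte markers Xcr1 and Nkg7 were at 0. The part of these markers in the results was not tested.

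**Figure D1:**
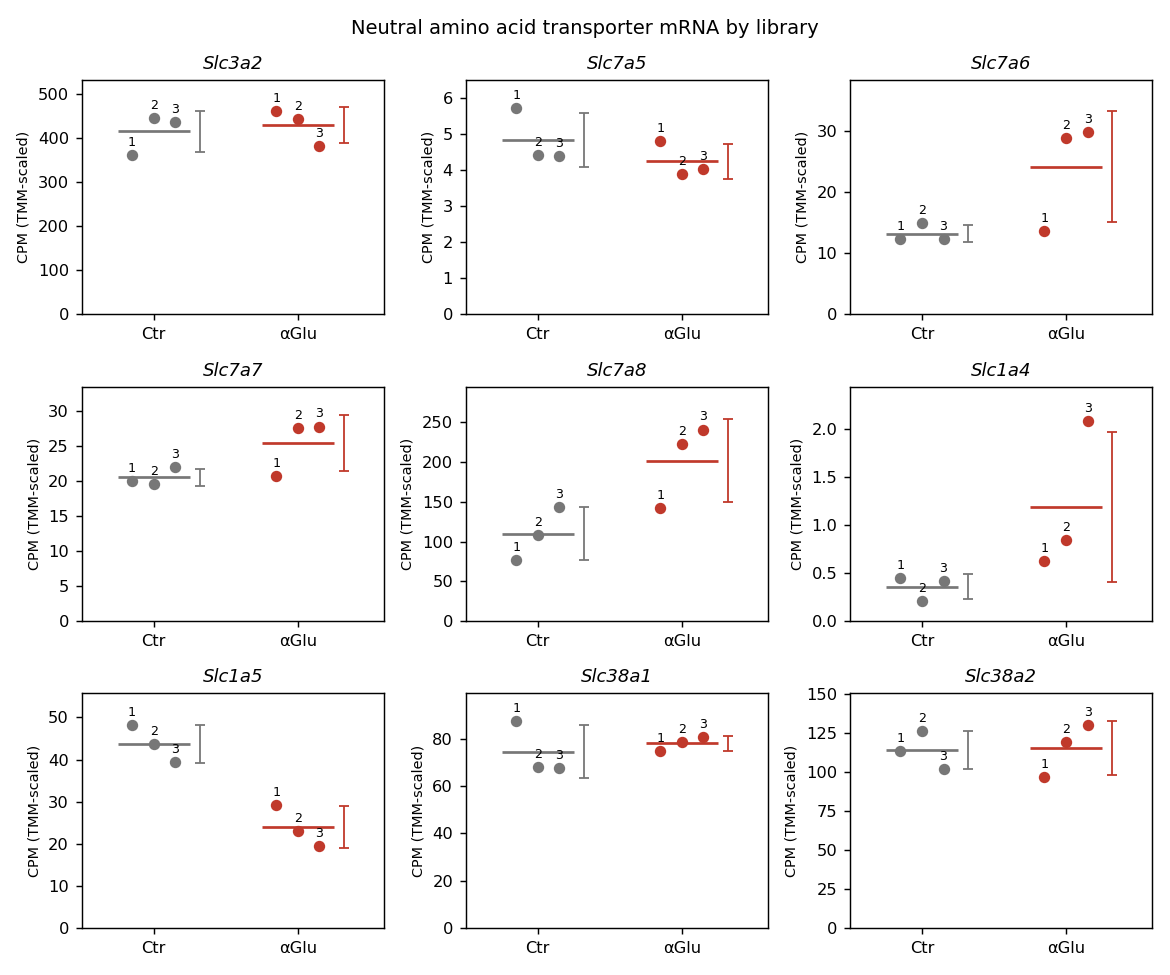
CPM (after scaling by TMM factors) of each transporter in the 3 Ctr (grey) and 3 αGlu (red) libraries, numbered by replicate, with the group mean as a line and the SD as a bar beside it; every axis starts at 0. Slc1a5 was lower in all 3 αGlu libraries and Slc1a4 higher, and for Slc7a6 and Slc7a7 only αGlu 2 and αGlu 3 lay above the Ctr points.

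Slc3a2, the heavy chain on which the Slc7 light chains depend, was the most abundant of the 9 genes. The gene lies on the minus strand of chromosome 19 (GRCm38 chr19:8706882-8723369). Its level was 363, 447 and 437 CPM in Ctr 1, 2 and 3 and 462, 444 and 383 CPM in αGlu 1, 2 and 3. The groups overlapped, with 1 library of each below 400 CPM. The log2 fold change was 0.05 ± 0.14 (αGlu over Ctr; SE, n = 3 per group; edgeR adjusted p = 0.833) and -0.01 ± 0.13 without αGlu 1.

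Slc7a5 (LAT1), the exchanger best known for leucine import and for supplying mTORC1 in activated immune cells, was the lowest of the light chains. The gene lies on the minus strand of chromosome 8 (chr8:121881150-121907694). Slc7a5 reached 5.72, 4.43 and 4.41 CPM in Ctr, and 4.82, 3.90 and 4.04 CPM in αGlu, that is 84 to 126 reads per library. Only Ctr 1 lay above all αGlu libraries. The log2 fold change of Slc7a5 was -0.19 ± 0.18 (edgeR adjusted p = 0.503), with -0.29 ± 0.19 in the absence of αGlu 1 (adjusted p = 0.264).

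Slc7a8 (LAT2), which exchanges large and small neutral amino acids, was the most abundant light chain in every library. It lies on the minus strand of chromosome 14 (chr14:54722209-54781946). Its level was 77.1, 109 and 143 CPM in Ctr and 142, 223 and 241 CPM in αGlu. The overlap came from αGlu 1, which lay just below Ctr 3. On the deposited TPM scale αGlu 1 lay just above Ctr 3 instead, at 88.0 against 85.7 TPM. The log2 fold change of Slc7a8 was 0.88 ± 0.29 (edgeR adjusted p = 0.168). It was 1.07 ± 0.24 without αGlu 1, where the gene was called (edgeR adjusted p = 0.0138). DESeq2 on 6 libraries gave an adjusted p of 0.0507 with a difference below the 2-fold limit.

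Slc7a6 (y+LAT2) and Slc7a7 (y+LAT1) exchange cationic amino acids such as arginine against neutral amino acids and sodium. Slc7a6 lies on the plus strand of chromosome 8 (chr8:106168857-106198706). Its level was 12.4, 14.9 and 12.4 CPM in the Ctr libraries, against 13.7, 28.9 and 29.9 CPM in αGlu. αGlu 1 lay within the Ctr range, and αGlu 2 and αGlu 3 were 2.19 and 2.26 times the Ctr mean. The log2 fold change was 0.87 ± 0.30 (edgeR adjusted p = 0.174) and 1.15 ± 0.11 without αGlu 1, where Slc7a6 was called (edgeR adjusted p = 0.000478).

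Slc7a7 lies on the minus strand of chromosome 14 (chr14:54369442-54417780). It gave 19.9, 19.6 and 21.9 CPM in Ctr and 20.8, 27.6 and 27.8 CPM in αGlu. As for Slc7a6, αGlu 1 lay within the Ctr range and the other αGlu libraries above it, but by a smaller margin. The log2 fold change of Slc7a7 was 0.31 ± 0.14 (edgeR adjusted p = 0.220), and 0.43 ± 0.08 without αGlu 1 (adjusted p = 0.00818), below the 2-fold limit in both. Its exons share 232 bases with Oxa1l on the other strand, and the strand setting of the counting was not given in the sources used here. Oxa1l, an insertase of the inner mitochondrial membrane, had a log2 fold change of 0.05 ± 0.06 (0.05 ± 0.07 without αGlu 1).

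The upstream sequences of these 3 light chains are shown because their mRNAs were higher in αGlu 2 and αGlu 3 than in every Ctr library. RefSeq promoters (GRCm38.p6) were matched for 6 of the 9 genes, all but Slc7a5, Slc38a1 and Slc1a5. Each line gives bases upstream of the outermost listed start, 5' to 3' on the strand of the gene, from chr8:106168604-106168853 for Slc7a6, chr14:54417945-54418194 for Slc7a7 and chr14:54781947-54782136 for Slc7a8. They run over 250 bases, or 190 for Slc7a8, whose window was cut where the GENCODE gene begins. The outermost start of Slc7a7 lies outside the GENCODE gene, and the bases after it were not found in GENCODE transcripts of the gene. Capitals mark a match to TGATGNAA, the letters of the amino acid response element bound by ATF4 complexes.
Slc7a6 upstream: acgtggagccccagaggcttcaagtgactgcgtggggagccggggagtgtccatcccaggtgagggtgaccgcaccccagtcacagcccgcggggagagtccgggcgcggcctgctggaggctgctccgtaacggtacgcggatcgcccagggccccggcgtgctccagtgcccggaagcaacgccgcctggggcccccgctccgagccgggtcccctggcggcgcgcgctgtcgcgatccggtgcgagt
Slc7a7 upstream: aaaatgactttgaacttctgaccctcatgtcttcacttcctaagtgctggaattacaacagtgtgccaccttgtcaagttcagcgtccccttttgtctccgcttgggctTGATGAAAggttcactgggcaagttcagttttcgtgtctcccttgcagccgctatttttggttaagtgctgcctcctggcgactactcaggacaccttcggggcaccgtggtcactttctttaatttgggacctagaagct
Slc7a8 upstream: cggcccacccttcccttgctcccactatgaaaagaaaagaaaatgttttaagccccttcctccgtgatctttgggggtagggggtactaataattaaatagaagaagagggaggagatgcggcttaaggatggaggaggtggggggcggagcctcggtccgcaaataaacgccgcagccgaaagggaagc
TGATGNAA on either strand was found in 3.45% of 32851 promoter windows of 250 bases, and CACGTG, the E-box that Myc binds, in 6.02%. No match to either motif overlapped another. Among the 6 genes, TGATGNAA occurred only in windows of Slc7a7, as TGATGAAA at 141 to 134 bases before the outermost start, which is printed, and as TGATGCAA at 243 to 236 bases before another listed start. No window of the 6 genes held CACGTG. The windows of Slc7a6 and Slc7a8 held neither motif. Slc7a7 had 5 windows, more than either of these, and the 3.45% is a share per window. Whether ATF4 or Myc acts on these genes was not tested.

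**Figure D2:**
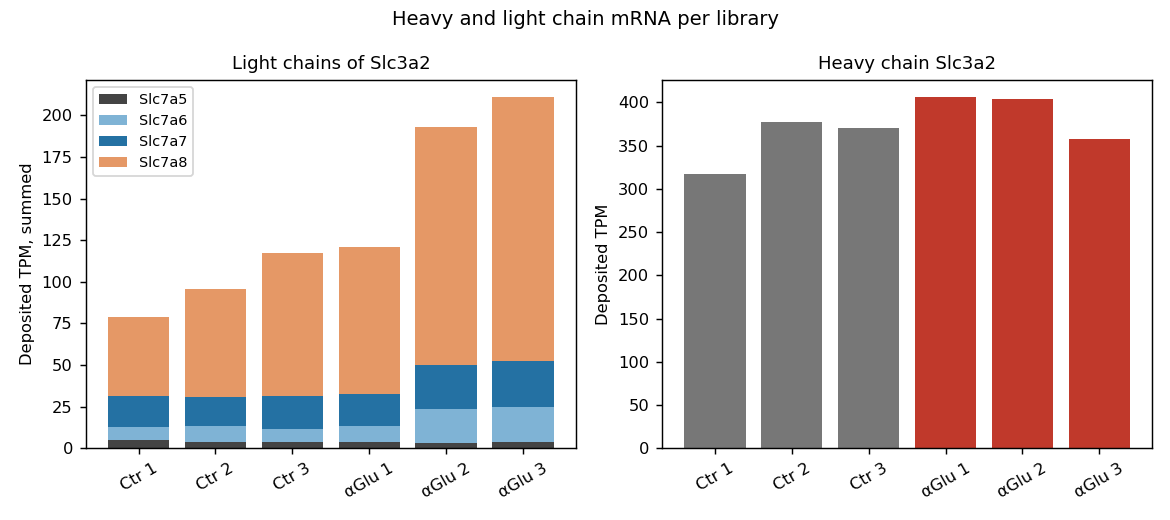
Deposited TPM per library of the 4 light chains, stacked (left), and of the heavy chain Slc3a2 (right), both axes from 0; there are no error bars because each bar is 1 library. The stacked height was 79.0 to 117 TPM in Ctr and 121 to 211 TPM in αGlu, most of it Slc7a8, while Slc3a2 stayed between 317 and 406 TPM.

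Levels of different genes are compared in TPM as deposited, a unit in which reads are scaled by exon length and library depth. The 4 light chains together amounted to 79.0, 95.6 and 117 TPM in Ctr and to 121, 193 and 211 TPM in αGlu. The sum was therefore above all Ctr values in αGlu 2 and αGlu 3 and slightly above Ctr 3 in αGlu 1. Divided by Slc3a2, it was 0.249, 0.253 and 0.317 in Ctr and 0.298, 0.478 and 0.590 in αGlu. The mean ratio was 0.273 ± 0.038 for Ctr, against 0.455 ± 0.148 for αGlu (SD, n = 3; exact permutation test, two-sided p = 0.2, adjusted over 4 ratios 0.267). With 3 libraries against 3, the smallest p this test can give is 0.1. Heavy chain mRNA exceeded the summed light chain mRNA in all 6 libraries. Slc7a11, the cystine/glutamate exchanger that also pairs with Slc3a2, is outside the 9 genes and was added after its values were seen. Its level was 8.64, 8.13 and 6.85 TPM in Ctr and 7.21, 28.8 and 14.5 TPM in αGlu, again with αGlu 1 in the Ctr range (log2 fold change 1.01 ± 0.47, or 1.36 ± 0.28 without αGlu 1).

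Slc7a8 made up 60.0%, 67.7% and 73.2% of light chain TPM in Ctr and 72.9%, 73.9% and 75.1% in αGlu. Slc7a5 made up 6.01%, 3.72% and 3.03% in Ctr and 3.34%, 1.75% and 1.70% in αGlu. The LAT1 share was thus lowest in αGlu 2 and αGlu 3, with αGlu 1 in the Ctr range. The mean share of Slc7a5 was 4.26% ± 1.56 for Ctr, against 2.26% ± 0.93 for αGlu (SD, n = 3; exact permutation p = 0.2, adjusted 0.267). The mean share of Slc7a7 was 19.6% in Ctr and 14.3% in αGlu, and that of Slc7a6 was 9.20% and 9.45%.

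Slc1a5 (ASCT2), a sodium-dependent exchanger known as a main route of glutamine entry, was the member with the smallest p. It lies on the plus strand of chromosome 7 (chr7:16781340-16798274). Slc1a5 reached 48.3, 43.7 and 39.3 CPM in Ctr but 29.2, 23.1 and 19.4 CPM in αGlu. All αGlu libraries lay below all Ctr libraries, αGlu 1 included. The fitted level in αGlu was 0.545 times that in Ctr (log2 fold change -0.88 ± 0.17). Its unadjusted edgeR p was 0.00197, and the adjusted p of 0.149 was the smallest in the whole table, a value that 248 genes share. Adjustment over 11933 genes therefore left no gene under the threshold, and 1.27% of genes had a smaller unadjusted p than Slc1a5. Without αGlu 1 the log2 fold change was -1.05 ± 0.12 and Slc1a5 was called (edgeR adjusted p = 0.00117). DESeq2 gave an adjusted p of 0.00128 on 6 libraries with a difference under 2-fold.

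Slc1a4 (ASCT1), a related exchanger of alanine, serine, cysteine and threonine, was scarce. It lies on the minus strand of chromosome 11 (chr11:20302180-20332713). Only 10, 5 and 9 reads fell on it in Ctr and 11, 27 and 57 in αGlu. This corresponds to 0.454, 0.209 and 0.418 CPM and to 0.631, 0.850 and 2.09 CPM, with every αGlu library above every Ctr library. Slc1a4 reached the filter level of 0.422 CPM before TMM scaling in 3 of 3 αGlu libraries and in 1 of 3 Ctr libraries, so it was tested because of the group in which it was higher. Its log2 fold change was 1.73 ± 0.58 (edgeR adjusted p = 0.170), and 2.01 ± 0.53 without αGlu 1, where it was called (edgeR adjusted p = 0.0266). Slc1a4 was the only member called by DESeq2 on 6 libraries (adjusted p = 0.0905). Without Slc1a4 the median log2 fold change of the other 8 members was 0.06.

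Slc1a5 nevertheless remained the main mRNA of this pair in each library. Its share of the summed TPM of Slc1a4 and Slc1a5 was 99.0%, 99.5% and 98.9% in Ctr and 97.8%, 96.2% and 89.7% in αGlu. The groups did not overlap, and their means were 99.1% ± 0.322 and 94.6% ± 4.28 (SD, n = 3; exact permutation p = 0.1, the smallest possible, adjusted 0.267).

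Slc38a1 and Slc38a2 take up glutamine, alanine and other small neutral amino acids together with sodium, and Slc38a2 is known to be induced when amino acids run short. Both lie on the minus strand of chromosome 15, at chr15:96571418-96642913 for Slc38a1 and chr15:96687392-96699730 for Slc38a2. Slc38a1 was at 87.3, 68.0 and 67.7 CPM in Ctr and 74.6, 78.7 and 80.7 CPM in αGlu, so that the αGlu values lay between those of Ctr 2 and Ctr 1. Slc38a2 was at 113, 126 and 102 CPM in Ctr and 96.4, 119 and 130 CPM in αGlu, where the αGlu libraries held both the lowest and the highest value. The log2 fold changes were 0.07 ± 0.12 for Slc38a1 (edgeR adjusted p = 0.726) and 0.02 ± 0.14 for Slc38a2 (edgeR adjusted p = 0.943). Without αGlu 1 they were 0.10 ± 0.13 and 0.13 ± 0.11. Slc38a2 made up 74.9% ± 3.37 of the TPM of the pair in Ctr and 74.1% ± 2.22 in αGlu (SD, n = 3; exact permutation p = 0.9, adjusted 0.9). A p above the threshold does not show that the levels of Slc38a1 or Slc38a2 were equal between groups.

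**Figure D3:**
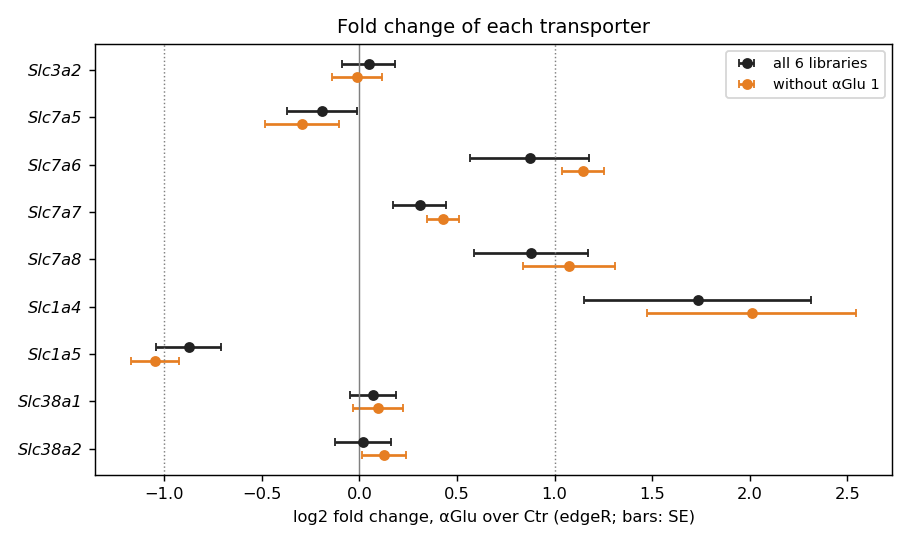
Log2 fold change of each transporter, αGlu over Ctr, from edgeR with all 6 libraries (black) and without αGlu 1 (orange); bars are SE and dotted lines mark a 2-fold difference. Omission of αGlu 1 moved Slc7a6, Slc7a8 and Slc1a5 past the 2-fold lines, and left Slc3a2, Slc38a1, Slc38a2 and Slc7a5 within 0.3 of 0.

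Without αGlu 1, 3 of the 9 genes were called higher (Slc7a6, Slc7a8 and Slc1a4) and 1 lower (Slc1a5), against the 8.05% and 10.5% of all genes given above. Leaving aside Slc1a4, which was tested because of the group in which it was higher, 2 of the other 8 were called higher. Omission of any other library gave 0 calls among the 9. Among the 8 genes other than Slc1a4, Slc1a5 alone separated the groups in all 6 libraries on the CPM scale. Slc7a6, Slc7a7 and Slc7a8 were higher than every Ctr library only in αGlu 2 and αGlu 3, and Slc3a2, Slc7a5, Slc38a1 and Slc38a2 had overlapping groups with differences of at most 0.2 on the log2 scale.

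In Ctr cells the order of TPM levels ran from Slc3a2 (355 ± 33.1, SD, n = 3) through Slc7a8 (66.0 ± 19.2), Slc38a2 (38.8 ± 4.09), Slc1a5 (31.7 ± 3.75), Slc7a7 (18.6 ± 1.09), Slc38a1 (13.03 ± 2.21), Slc7a6 (8.71 ± 0.865) and Slc7a5 (3.96 ± 0.689) to Slc1a4 (0.278 ± 0.105). Of these neighbours only Slc38a2 and Slc1a5 had overlapping ranges. In αGlu the order began with Slc3a2 (389 ± 27.4), Slc7a8 (130 ± 36.8) and Slc38a2 (41.8 ± 7.37), and ended with Slc7a5 (3.66 ± 0.337) and Slc1a4 (0.981 ± 0.674). Between them, Slc7a7 (24.5 ± 4.45), Slc1a5 (18.2 ± 3.25), Slc7a6 (16.99 ± 6.72) and Slc38a1 (14.5 ± 0.984) each overlapped the next. Slc1a5 and Slc38a2 no longer overlapped, and Slc1a5 could not be ordered against Slc7a7, Slc7a6 or Slc38a1. Among the genes tested, Slc3a2 stood at percentile 96.9 of Ctr TPM and Slc7a5 at percentile 22.5.

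**Figure D4:**
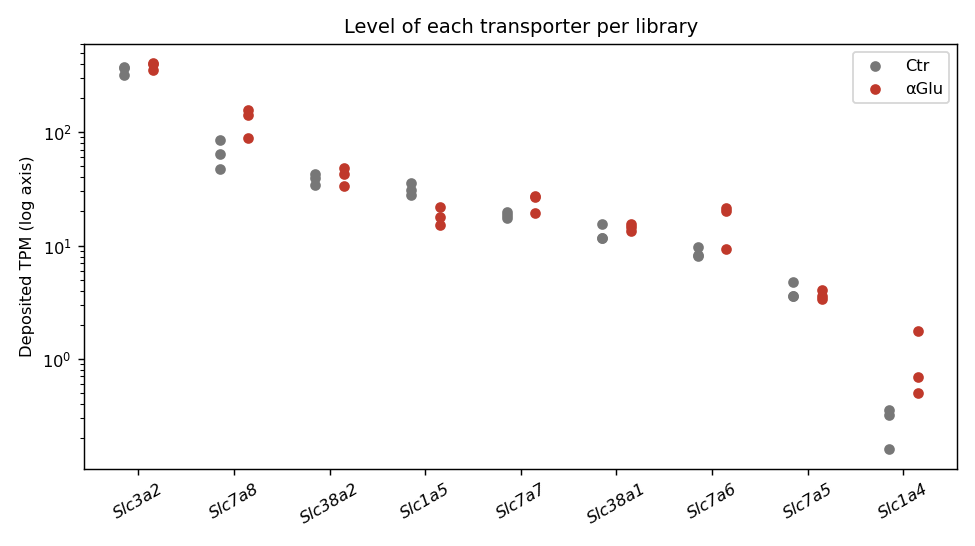
Deposited TPM of the 9 transporters in each Ctr (grey) and αGlu (red) library on a log axis, ordered by the Ctr mean. Slc3a2 lay above 316 TPM and Slc1a4 below 2 TPM in every library, and the αGlu points of Slc1a5 lay below all its Ctr points.

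The genes whose profile over the 6 libraries was most like that of a member were found by the root mean square (RMS) difference of log2 CPM, centred per gene, among tested genes that averaged 3 or more in log2 CPM. For Slc3a2 they were Aup1 (0.027), Ttc1 (0.033) and Polr2f (0.039), with a median of 0.208 over 8418 genes. For Slc7a5 they were Papss1 (0.036), Ivns1abp (0.040) and Pgls (0.046), with a median of 0.246 over 8419 genes. The 6 names and their order were the same with a prior count of 0.5 in place of 2.

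Among other amino acid transporters, 13 of 29 listed genes passed the filter on low counts and edgeR on 6 libraries called 0, with 4 higher and 2 lower at an unadjusted p under 0.05 and a median log2 fold change of 0.02. DESeq2 called 4 of 17 higher, namely Slc7a2, Slc38a6 and, named after their values were seen, Slc6a9 and Slc1a2. Without αGlu 1 edgeR called 6 of 15 higher. Among these 6 were Slc1a2 and, named after its values were seen, Slc6a19, with 0 to 7 reads in the Ctr libraries. Both failed the filter with all 6 libraries and passed here through αGlu 2 and αGlu 3. They were thus tested because of the group in which they were higher. Of all genes, DESeq2 called 4.21% higher, and edgeR without αGlu 1 called 8.05% higher. At an unadjusted p under 0.05, 12.7% of all genes were higher and 11.9% lower, which also applies to the lists below. Slc7a2 (CAT2), which imports arginine, was at 373, 395 and 369 CPM in Ctr and 411, 1796 and 1307 CPM in αGlu. Its groups did not overlap, although αGlu 1 was close to Ctr (log2 fold change 1.63 ± 0.51, edgeR adjusted p = 0.162), and without αGlu 1 the log2 fold change was 2.03 ± 0.14 (edgeR adjusted p = 0.000186). Slc38a6, a relative of the SNAT carriers, had a log2 fold change of 1.28 ± 0.44, with αGlu 1 in the Ctr range, and of 1.65 ± 0.08 without that library. Slc16a10 (TAT1), a carrier of aromatic amino acids, was 47.6 to 52.7 CPM in Ctr and 29.9 to 44.6 CPM in αGlu (log2 fold change -0.50 ± 0.16, or -0.69 ± 0.08 without αGlu 1). Slc38a9, a lysosomal carrier that senses arginine, had a log2 fold change of -0.34 ± 0.13 (-0.49 ± 0.09 without αGlu 1). Slc43a2 (LAT4), a carrier of leucine and other large neutral amino acids that needs no heavy chain, was at 313 to 420 CPM in Ctr and 411 to 460 CPM in αGlu (log2 fold change 0.30 ± 0.14, or 0.29 ± 0.14 without αGlu 1).

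Of 30 genes of amino acid sensing by mTORC1, 29 were tested and edgeR on 6 libraries called 0, with 3 higher and 2 lower at an unadjusted p under 0.05 and a median log2 fold change of -0.04. DESeq2 called 2 of 30 higher (Sesn2 and Wdr59) and 1 lower (Sesn1). Without αGlu 1 edgeR called 3 of 29 higher and 1 lower, the same 3 genes and Castor1, which was named after its values were seen. Of all genes, DESeq2 called 4.21% higher and 3.92% lower, and edgeR without αGlu 1 called 8.05% and 10.5%. The leucine sensor Sesn2 was at 11.1 to 14.1 CPM in Ctr and 17.2 to 32.8 CPM in αGlu (log2 fold change 1.04 ± 0.25, edgeR adjusted p = 0.156), with 1.27 ± 0.12 in the absence of αGlu 1. Its relatives had fold changes of the other sign, with log2 values of -1.39 ± 0.51 for Sesn1 and -0.66 ± 0.26 for Sesn3, and neither overlapped between groups. Without αGlu 1 these were -2.15 ± 0.22, where Sesn1 was called (edgeR adjusted p = 0.000739), and -0.93 ± 0.22, where Sesn3 stayed under the 2-fold limit. Wdr59, of the GATOR2 complex, had a log2 fold change of 1.27 ± 0.43 with αGlu 1 inside the Ctr range, and of 1.64 ± 0.09 without it. For Lamtor5 and Rragc, of the lysosomal Ragulator and Rag complexes, it was 0.26 ± 0.10 and -0.25 ± 0.18, or 0.27 ± 0.11 and -0.46 ± 0.10 without αGlu 1.

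Of 20 genes of the ATF4 amino acid response, 15 were tested and edgeR on 6 libraries called 0, with 5 higher and 2 lower at an unadjusted p under 0.05 and a median log2 fold change of 0.23. DESeq2 called 6 of 19 higher and 2 lower, Psat1 and Atf3, while 4.21% and 3.92% of all genes were called. The higher ones were Atf5, Trib3 and, named after their values were seen, Nupr1, Mthfd2, Cebpb and Ddit4. Nupr1 was at 1.88 to 4.83 CPM in Ctr and 7.69, 81.8 and 80.3 CPM in αGlu. Its log2 fold change was 4.21 ± 0.95, or 4.72 ± 0.30 without αGlu 1. Groups overlapped for Mthfd2, Cebpb and Ddit4. Without αGlu 1 edgeR called 7 of 17 higher and 2 lower, against 8.05% and 10.5% of all genes. Among these 7 were Ddit4 and, named after its values were seen, Chac1, with 4 to 9 reads in the Ctr libraries. Both failed the filter with all 6 libraries and passed here through αGlu 2 and αGlu 3. They were thus tested because of the group in which they were higher. Atf4 itself was at 171 to 186 CPM in Ctr and 178 to 263 CPM in αGlu, with overlapping groups (log2 fold change 0.34 ± 0.16, edgeR adjusted p = 0.235; 0.47 ± 0.10 without αGlu 1). Its known targets Atf5 and Trib3 had log2 fold changes of 1.59 ± 0.34 and 1.61 ± 0.35, with all αGlu libraries above Ctr, and both were 1.89 without αGlu 1 (SE 0.11 and 0.21). Psat1, an enzyme of serine synthesis, was at 19.3 to 34.0 CPM in Ctr and 5.32 to 7.74 CPM in αGlu (log2 fold change -2.02 ± 0.27, or -2.21 ± 0.27 without αGlu 1). For the stress-induced factor Atf3 the log2 fold change was -1.12 ± 0.40, and -1.69 ± 0.17 without αGlu 1, where it was called (edgeR adjusted p = 0.000666). The naming rule takes genes from both directions, so the signs of the named genes do not describe the list.

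Of 18 enzymes of glutamine and branched-chain amino acids, 16 were tested and edgeR on 6 libraries called 0, with 1 higher and 3 lower at an unadjusted p under 0.05 and a median log2 fold change of -0.06. DESeq2 called 0 of 17, and edgeR without αGlu 1 called 1 of 17 lower, the scarce Bcat1, which was named after its values were seen. Bcat1 had 6 to 11 reads in the Ctr libraries, through which it passed the filter in that fit, and 0 to 4 in αGlu. The shares of all genes were 4.21% higher and 3.92% lower for DESeq2, and 8.05% and 10.5% for edgeR without αGlu 1. Glud1 (glutamate dehydrogenase) was at 219 to 249.5 CPM in Ctr and 139 to 204 CPM in αGlu (log2 fold change -0.50 ± 0.16, or -0.67 ± 0.10 without αGlu 1). Lower values without overlap were also found for Gpt2, the mitochondrial alanine aminotransferase (-0.75 ± 0.12, or -0.73 ± 0.13 without αGlu 1), and Bcat2, the mitochondrial branched-chain aminotransferase (-0.40 ± 0.11, or -0.50 ± 0.10). Of the 16 genes tested, 4 lay wholly below Ctr (15.9% of all genes) and 1 wholly above (14.2% of all genes). Glul (glutamine synthetase) had overlapping groups (-0.10 ± 0.22), and its sign turned without αGlu 1 (0.10 ± 0.13). Ppm1k, the phosphatase that activates branched-chain keto acid breakdown, had a log2 fold change of 0.68 ± 0.21 (0.87 ± 0.12 without αGlu 1), and Bckdhb, a subunit of that dehydrogenase, of 0.40 ± 0.21 (0.51 ± 0.21). Myc, a transcription factor known to drive Slc1a5 and Slc7a5 in proliferating cells, was at 30.2, 23.0 and 26.7 CPM in Ctr and 12.8, 1.79 and 2.31 CPM in αGlu (log2 fold change -2.28 ± 0.77, edgeR adjusted p = 0.170). Without αGlu 1 the log2 fold change of Myc was -3.71 ± 0.18 and the gene was called (edgeR adjusted p = 4.95e-05), as it was by DESeq2 on 6 libraries (adjusted p = 0.0241). Like Slc1a5 and 15.9% of all genes, Myc was lower in all 3 αGlu libraries than in every Ctr library, whereas Slc7a5 was not. A link of Myc to either transporter was not tested.

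**Figure D5:**
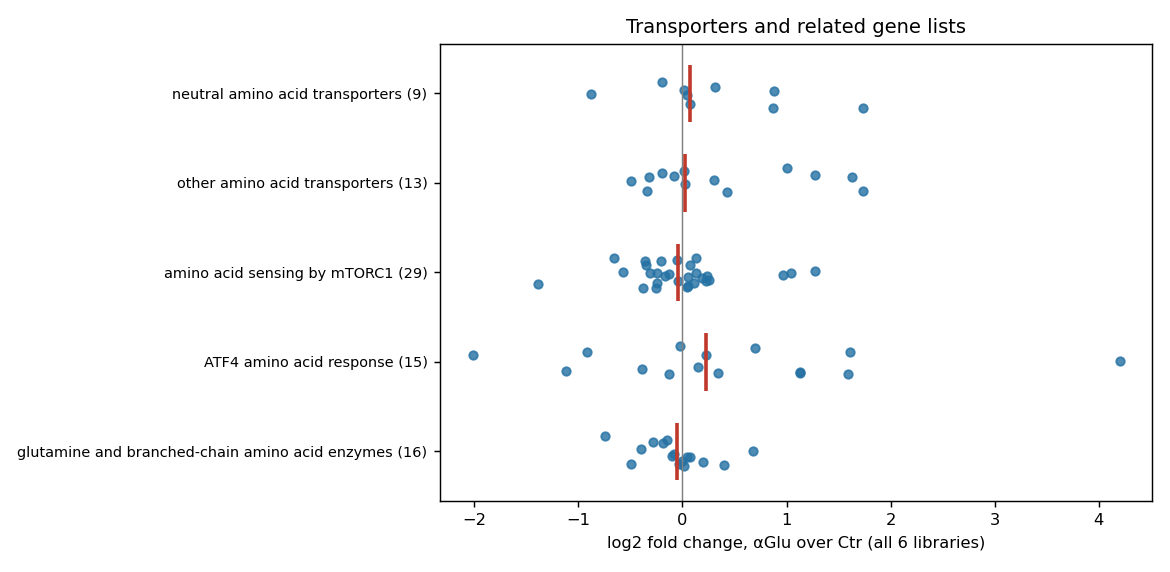
Log2 fold change (αGlu over Ctr, all 6 libraries) of the 9 transporters and of the tested genes of 4 related lists; each point is a gene, the red line is the median of the list and the number of genes tested is in parentheses, with vertical scatter added for legibility only. List medians lay between -0.06 and 0.23, and each list had genes on both sides of 0.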

How the data were processed

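The authors sequenced stranded mRNA libraries and used version 5.1 of QIAGEN's RNA-seq Analysis Portal to process the reads; the submitters' processing notes name build GRCm38, and the aligner and annotation are not given in the sources used here. The authors deposited raw exon counts, which served for all tests, and RPKM and TPM values scaled by exon length and depth, of which TPM served to compare genes; 1 unnamed entry was left out. Coordinates are those of GENCODE M21. Genes were filtered with filterByExpr (minimum count 10, minimum total 15), scaled with TMM factors and tested with edgeR 4.0.16 in R 4.3.3 (quasi-likelihood, two-sided, group as the only term, Benjamini-Hochberg over all genes tested). Calls required an adjusted p under 0.1 and a log2 fold change above 1 in size; SE was derived from the F statistic. Ratios of TPM were compared with exact permutation tests. Alternatives were DESeq2 1.42.0, limma-voom (limma 3.58.1), other scalings, filters and thresholds, a replicate block and each library left out. The tests were checked on simulated counts in which both groups had the spread of the Ctr libraries. That check does not cover a group with an outlying library such as αGlu 1. The text names the 9 members, the 2 genes of each related list with the smallest p in each direction and the 2 most abundant, Myc, and the 3 genes most like Slc3a2 and Slc7a5. Some further genes are marked as named after their values were seen. Members and lists were chosen with earlier results of these data known.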

Additional observations from a re-analysis of the deposited data

How the results depend on the processing

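Against 0 genes called by edgeR on 6 libraries (1520 higher and 1423 lower at an unadjusted p under 0.05) and 0 by limma-voom, DESeq2 called 1117, of which 1 was a member, and the fit with the replicate number as a block called 17, with no member among them. Leaving out each library in turn gave 0 to 2290 calls among all genes and 0 to 4 among the members, the higher values only without αGlu 1, a median log2 fold change of the members from 0.066 to 0.209 (0.209 without Ctr 1), and 2 to 6 members without overlap (4 without Ctr 3 and 6 without αGlu 1, where 42% and 65.8% of all genes had none). Library size alone gave a median of 0.15 for the members and 0.10 for all genes, against 0.02 with TMM factors. Slc3a2 changed sign without Ctr 1 (-0.0318) and without αGlu 1 (-0.0108; range over the 6 omissions -0.0318 to 0.126), and Slc38a2 with limma-voom (-0.0038), without Ctr 3 (-0.06), without αGlu 2 (-0.0028) and without αGlu 3 (-0.0756; range -0.0756 to 0.127). The other 7 members kept their sign under every alternative run, and Slc1a4 gave no value under a filter of CPM above 1 in 3 libraries. For each of the 4 TPM ratios, all 9 alternatives gave a group difference within 1 pooled SD of the main one, which says nothing about stability. The difference in the Slc38a2 share, -0.81 percentage points with all libraries, changed sign without Ctr 2 (0.94) and without αGlu 1 (0.42). That in the Slc1a5 share, -4.56 percentage points with all libraries, ranged from -6.16 without αGlu 1 to -2.13 without αGlu 3. Same-numbered libraries deviated together with correlations of 0.0646 to 0.154 (other numbers -0.112 to 0.0459), and 6 of 6 libraries correlated best with their own number, a hint from the data and not from the labels, so the numbers were not treated as pairs. The cause of these shifts was not tested. Depth limits Slc1a4, with 5 to 57 reads a library; p-values measure only the spread between 3 libraries a group.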
